A study of Mus musculus with 6 samples.

Results

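Microglia are the resident macrophages of the spinal cord, and in the healthy cord they carry a set of transcripts known as homeostatic genes. The 9 genes described here were taken from the deposited table by name: P2ry12, P2ry13, Tmem119, Siglech, Gpr34, Sall1, Cx3cr1, Olfml3 and Slc2a5. Each name matched 1 of the 37475 genes of the table. The study sequenced RNA of the injured cord of mice of wild-type genotype, taken on day 3 after contusion (a blunt impact) at level T10. The mice received a daily intraperitoneal injection of phosphate-buffered saline (PBS, 3 biological replicates) or of syringin, a plant phenylpropanoid glucoside, at 50 mg/kg (3 biological replicates). All 6 libraries are from injured mice and uninjured cord was not analysed here, so the values compare 2 groups of injured cords. The libraries come from bulk tissue, in which fewer microglia and less RNA per microglial cell cannot be told apart.

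As background, microglia use purinergic receptors (P2ry12, P2ry13), the lysophosphatidylserine receptor Gpr34 and the fractalkine receptor Cx3cr1 to sense nucleotides, lipids and the neuronal ligand fractalkine. The transcription factor Sall1 maintains their identity, which also depends on transforming growth factor beta and on colony-stimulating factor 1 receptor. After injury, activated microglia are known to lose part of this set while blood-derived macrophages, which largely lack it, enter the lesion.

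P2ry12 and P2ry13 are neighbouring genes on the minus strand of chromosome 3, and Siglech on chromosome 7 had the lowest ratio between the groups. The windows around their transcription start sites (250 bases before to 50 after, RefSeq, GRCm38.p6) are shown because P2ry12 and P2ry13 lie side by side and P2ry12 alone of the pair did not overlap between the groups, and because Siglech stands at the low end. Capitals mark GAGGAA, letters found in some of the sites bound by the myeloid factor PU.1, or its reverse complement TTCCTC. Other forms of such sites, shorter ones among them, were not searched for.
P2ry12 (chr3:59262936-59263235, minus strand): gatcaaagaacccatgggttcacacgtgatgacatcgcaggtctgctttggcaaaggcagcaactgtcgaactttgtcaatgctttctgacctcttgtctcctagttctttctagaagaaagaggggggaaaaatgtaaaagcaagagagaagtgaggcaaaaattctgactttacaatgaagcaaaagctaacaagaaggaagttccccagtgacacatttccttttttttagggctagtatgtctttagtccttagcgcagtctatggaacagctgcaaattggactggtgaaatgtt
P2ry13 (chr3:59210833-59211132, minus strand): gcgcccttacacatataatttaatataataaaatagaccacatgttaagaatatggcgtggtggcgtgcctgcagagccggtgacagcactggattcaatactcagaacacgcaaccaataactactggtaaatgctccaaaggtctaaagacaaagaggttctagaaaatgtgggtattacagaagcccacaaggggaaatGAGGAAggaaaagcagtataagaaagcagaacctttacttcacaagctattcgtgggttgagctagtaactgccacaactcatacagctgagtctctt
Siglech (chr7:55767934-55768233, plus strand): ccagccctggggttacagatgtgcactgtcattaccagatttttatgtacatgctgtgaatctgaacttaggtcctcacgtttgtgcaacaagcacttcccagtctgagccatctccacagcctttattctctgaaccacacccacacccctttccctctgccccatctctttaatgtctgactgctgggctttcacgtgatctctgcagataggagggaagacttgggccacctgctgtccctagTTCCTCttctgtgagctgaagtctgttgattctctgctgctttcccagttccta
The P2ry13 window held the motif, beginning 48 bases before the start site. The Siglech window held its reverse complement, which began 4 bases before the start site and ran across it. No window of P2ry12, Sall1, Cx3cr1, Olfml3 or Slc2a5 held these letters on either strand, and Gpr34 and Tmem119 had no entry. In all, 2 of 9 windows of 7 genes held the motif, against 28.3% of 32851 windows of the same length. A match is a run of letters and says nothing on binding. A window without these letters, such as that of P2ry12, may still hold another form of the site.

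The libraries held about 65579100 to 78843000 estimated counts. Low counts were over-represented at multiples of 4 (a count of 4 was 1.51 times as frequent as the mean of its neighbours), so 1 fragment may add about 4 counts and the counting error is then larger than the counts imply. The 9 genes together took 0.0465%, 0.0486% and 0.0556% of the counts in PBS libraries 1 to 3 and 0.0364%, 0.0423% and 0.0478% in syringin libraries 1 to 3. PBS library 1 and syringin libraries 1 and 3 held transcripts of sensory ganglion neurons, which lie outside the cord: the sodium channel gene Scn10a had 818 to 3558 counts there and 0 to 15 counts in the other 3. The 6 oligodendrocyte genes, among them Mbp, which mark cord tissue, summed to 2464 to 3372 FPKM over the libraries. Where Scn10a had no count, a one-sided 95% Poisson limit allows up to 3 fragments.

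Of the 9 homeostatic genes, Siglech, Slc2a5, P2ry12 and Gpr34 were lower in every syringin library than in any PBS library, with means 3.25, 2.47, 1.67 and 1.59 times lower by the fitted fold. The other 5 overlapped between the groups, and Sall1 and Olfml3 had nearly equal means. With edgeR's quasi-likelihood F test and p-values adjusted (Benjamini-Hochberg) over all genes, 0 of the 9 genes passed an adjusted p of 0.05, where 5.01% of the 22114 genes tested did (3.39% lower and 1.62% higher). All 9 were among the genes tested. At an unadjusted p under 0.05 stood 4 of the 9, all lower, against 23.6% of all genes in either direction and 12.1% lower. The groups did not overlap for 4 of 9, all lower, against 15.3% of all genes lower and 30% in either direction (14.7% higher). Of the fold changes 8 of 9 were negative, against 49.1% of all genes, and the median was -0.39 (log2, syringin minus PBS) beside 0.01 over all genes tested. Among the 8, Sall1 was at -0.01. The 9 genes share the same 6 libraries and most rose and fell together across them. They are not independent of each other, and these shares are descriptions. The median of the 9 was -0.20 without syringin library 1, -0.26 without PBS library 3 and -0.59 without syringin library 3.

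DESeq2 called 3 of the 9 genes lower (P2ry12, Gpr34 and Slc2a5, adjusted p = 0.0103, 0.0114 and 0.0316). Of all 22114 genes it called 14.4% in either direction and 8.09% lower, with 1401 genes higher. Limma-voom called none. PBS library 3 had the highest level of 8 of the 9 genes among the PBS libraries. Without it edgeR and limma-voom called 0 genes in the whole table (3449 and 3532 had an unadjusted p under 0.05), so the calls of the edgeR fit to all 6 libraries with treatment alone are lost without that library. DESeq2 then called 1466 genes and 0 of the 9, of which 3 had an unadjusted p under 0.05. Without syringin library 1 edgeR called 1944 genes, and without any of the other 4 libraries 184 to 436. With 3 libraries in each group an exact permutation test over libraries cannot go below p = 0.1 (two-sided), which P2ry12, Gpr34, Siglech and Slc2a5 reached.

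**Figure D1:**
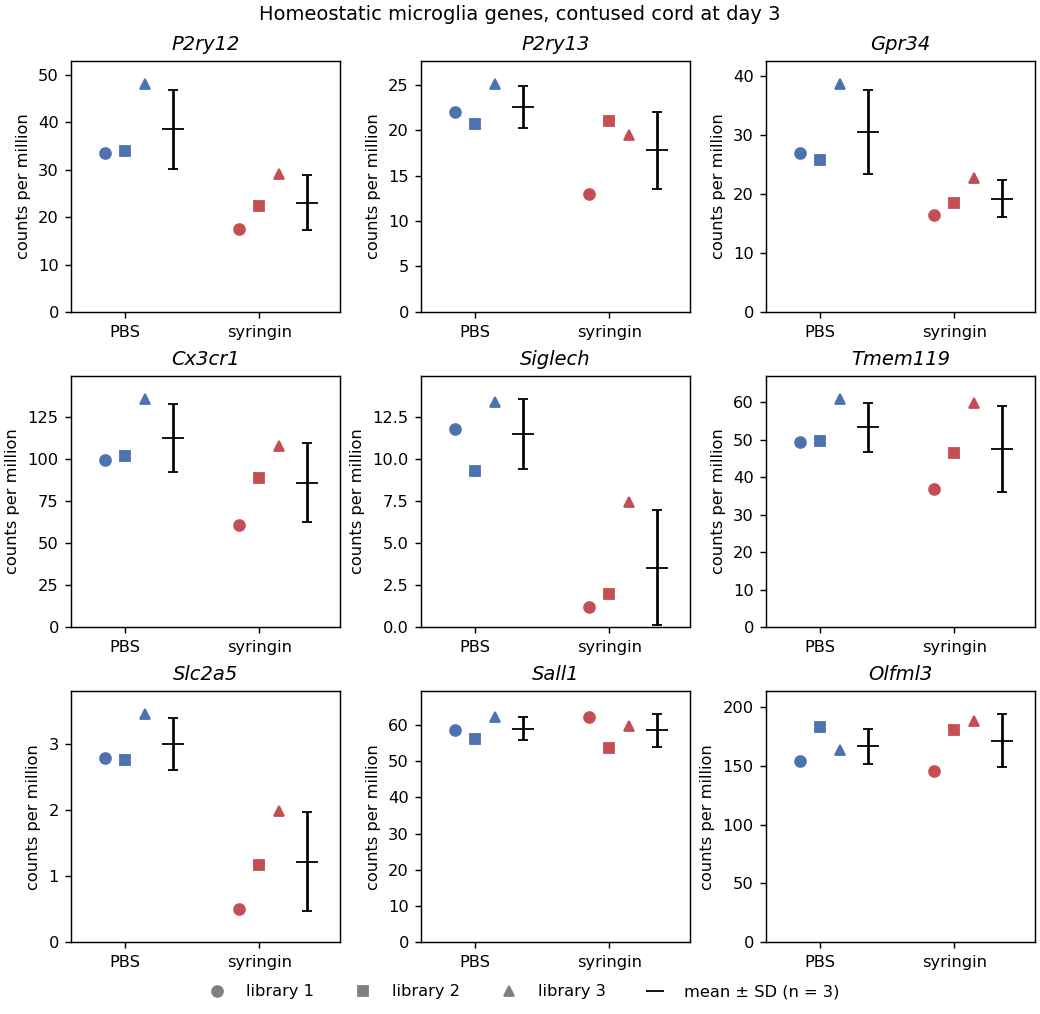
Level of each of the 9 genes in CPM (counts per 1e+06 after TMM scaling, linear axes from 0) in the 3 PBS and 3 syringin libraries, with the mean ± SD of each group beside the points. The syringin points of P2ry12, Gpr34, Siglech and Slc2a5 lie below all PBS points, and the range of those of Sall1 and Olfml3 overlaps the PBS range.

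P2ry12 (ENSMUSG00000036353, chromosome 3, 59123693 to 59170252) encodes the Gi-coupled receptor for ADP that draws microglial processes to sites of damage. It stood at 33.5, 33.9 and 48.1 CPM (counts per 1e+06 after TMM scaling) in PBS libraries 1 to 3 and at 17.6, 22.4 and 29.2 CPM in syringin libraries 1 to 3. All 3 syringin values lay under the lowest PBS value, with the highest of them in syringin library 3. The means were 38.5 ± 8.32 and 23.0 ± 5.84 CPM (SD, n = 3 in each group). The log2 fold change was -0.74 ± 0.21 (SE; 95% interval -1.23 to -0.25; edgeR adjusted p = 0.0880), so P2ry12 missed the threshold.

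P2ry13 (ENSMUSG00000036362, chromosome 3, 59115313 to 59118303), another ADP receptor of the same cluster, overlapped between the groups. Its PBS values were 22.0, 20.6 and 25.1 CPM and its syringin values 13, 21 and 19.4 CPM. Syringin library 2 lay above PBS library 2, and syringin library 1 was the lowest of all. The log2 fold change was -0.34 ± 0.19 (95% interval -0.77 to 0.09; edgeR adjusted p = 0.316), and -0.16 without syringin library 1. The ratio of P2ry12 to P2ry13, both as FPKM (fragments per kilobase of transcript, scaled to depth), was 1.51, 1.63 and 1.90 in PBS libraries and 1.34, 1.06 and 1.49 in syringin libraries. Every syringin ratio was below every PBS ratio, and an exact permutation test of 3 against 3 libraries cannot go below p = 0.1.

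Both receptor genes lie within Med12l, a gene on the opposite strand. The library kit keeps strand, but the sources used here do not say whether counting used it, so reads of Med12l could enter their counts or the reverse. Med12l had 1678 to 2404 counts in PBS libraries and 1094 to 1904 in syringin libraries (log2 fold change -0.59 ± 0.16, edgeR adjusted p = 0.0746). Its part in the values of P2ry12 and P2ry13 was not tested.

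Gpr34 (ENSMUSG00000040229, chromosome X, 13498328 to 13507097), the lysophosphatidylserine receptor, had a profile close to that of P2ry12, with 26.9, 25.8 and 38.6 CPM in PBS libraries and 16.5, 18.5 and 22.6 CPM in syringin libraries. The groups did not overlap, and PBS library 3 was again the highest. The means were 30.4 ± 7.12 and 19.2 ± 3.12 CPM, a log2 fold change of -0.67 ± 0.19 (95% interval -1.10 to -0.23; edgeR adjusted p = 0.0851). Gpr34 sits within Cask on the opposite strand, whose log2 fold change was -0.13 ± 0.09 (edgeR adjusted p = 0.421). In the same way members overlap a predicted gene on the opposite strand: Sall1 overlaps Gm3134 (16 to 68 counts) and Cx3cr1 overlaps Gm33858 (30 to 93 counts), both small beside their own 3417 to 9247 counts. The part of these neighbours in the values was not tested.

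Cx3cr1 (ENSMUSG00000052336, chromosome 9, 119877749 to 119898945), the receptor for fractalkine, is also carried by some monocytes and lymphocytes. Its levels were 99.6, 101 and 136 CPM in PBS libraries and 60.7, 88.7 and 108 CPM in syringin libraries. Syringin library 3 exceeded PBS libraries 1 and 2. The log2 fold change was -0.39 ± 0.21 (95% interval -0.88 to 0.10; edgeR adjusted p = 0.315). It was -0.20 without syringin library 1, -0.23 without PBS library 3 and -0.59 without syringin library 3, so a single library moved it by more than 1.5 times. The ligand gene Cx3cl1, made mainly by neurons, passed the test and fell: its FPKM was 16.9, 23.6 and 23.6 in PBS libraries and 10.04, 11.9 and 13.1 in syringin libraries (-0.84 ± 0.16, edgeR adjusted p = 0.0334).

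Siglech (ENSMUSG00000051504, chromosome 7, 55417926 to 55428581), a receptor of the Siglec family carried by microglia, had the largest fold change of the 9, though not the largest difference in CPM. Its PBS libraries held 11.8, 9.27 and 13.4 CPM and its syringin libraries 1.2, 1.96 and 7.45 CPM. The syringin libraries differed widely from one another: libraries 1 and 2 were far below all PBS libraries, while library 3 came close to PBS library 2. The coefficient of variation was 18.1% in PBS libraries and 96.5% in the syringin group. At 97 counts in syringin library 1, about 24.2 fragments if 1 fragment adds 4 counts, the exact Poisson 95% interval is 15.6 to 36 fragments, against 194 to 253 in PBS library 1.

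For Siglech the log2 fold change was -1.70 ± 0.61 (95% interval -3.12 to -0.28; edgeR adjusted p = 0.149). Without syringin library 3 it was -2.87 and passed the threshold (edgeR adjusted p = 0.0455). The ratio of Siglech to P2ry12 FPKM was 0.263, 0.205 and 0.209 in PBS libraries and 0.0511, 0.0661 and 0.191 in syringin libraries, so in libraries 1 and 2 Siglech was low also beside P2ry12. Siglech also marks plasmacytoid dendritic cells. Of 9 other genes of those cells, summed at 30.6 to 38.5 FPKM in PBS libraries and 22.4 to 30.5 in syringin libraries, Klk1 and Ly6d were at 0 FPKM in at least 1 library. Ccr9 stood at 0.04 to 0.14 FPKM in all 6. Of the 8 tested, Pacsin1, which neurons also express, fell (-0.96 ± 0.17, edgeR adjusted p = 0.0242) and 7 did not pass. Pacsin1 was the largest part of the sum in every library. It had 20.5, 17.1 and 18.7 FPKM in PBS libraries and 12.3, 7.37 and 8.89 FPKM in syringin libraries. Of the 8 fold changes 6 were positive and 2 negative. The part of these genes in the Siglech values was not tested.

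Tmem119 (ENSMUSG00000054675, chromosome 5, 113931790 to 113938577), a membrane protein used to tell microglia from other macrophages, overlapped between the groups. It had 49.5, 49.7 and 60.9 CPM in PBS libraries and 36.8, 46.4 and 59.7 CPM in syringin libraries. Syringin libraries 1 and 2 were below, and library 3 was above, PBS libraries 1 and 2. The log2 fold change was -0.16 ± 0.18 (95% interval -0.57 to 0.24; edgeR adjusted p = 0.634). It was -0.01 without syringin library 1, -0.06 without PBS library 3 and -0.36 without syringin library 3.

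Slc2a5 (ENSMUSG00000028976, chromosome 4, 150203740 to 150228626), the fructose transporter GLUT5, was the least abundant of the set. Its PBS values were 2.78, 2.75 and 3.44 CPM and its syringin values 0.49, 1.16 and 1.98 CPM, without overlap. As with Siglech, syringin library 1 was the lowest and library 3 the nearest to PBS. The log2 fold change was -1.31 ± 0.45 (95% interval -2.36 to -0.26; edgeR adjusted p = 0.136). If 1 fragment adds 4 counts, the 40 counts of syringin library 1 are about 10 fragments. The exact Poisson 95% interval is then 4.8 to 18.4 fragments. On the same scale PBS library 1, with 210 counts, had an interval of 39.3 to 68.8 fragments.

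Sall1 (ENSMUSG00000031665, chromosome 8, 89753863 to 89770790), the transcription factor of microglial identity, had 58.5, 56.0 and 62.3 CPM in PBS libraries and 62.2, 53.5 and 59.8 CPM in syringin libraries. Values of both groups were interleaved and close together, with coefficients of variation of 5.39% and 7.68%. The log2 fold change was -0.01 ± 0.09 (edgeR adjusted p = 0.961). For the level in the whole tissue, its 95% interval of -0.23 to 0.20 leaves out a change of the size seen for P2ry12. Olfml3 (ENSMUSG00000027848, chromosome 3, 103629538 to 103645317), a secreted glycoprotein, stood at 154, 183 and 163 CPM in PBS libraries and 145, 180 and 188 CPM in syringin libraries. Its groups overlapped fully, at 0.04 ± 0.12 (95% interval -0.24 to 0.32; edgeR adjusted p = 0.886). The sign of both fold changes depended on which libraries entered the fit. These values are of bulk tissue, and which cells carried the Sall1 and Olfml3 transcripts was not tested. They therefore do not give the levels in microglia alone.

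**Figure D2:**
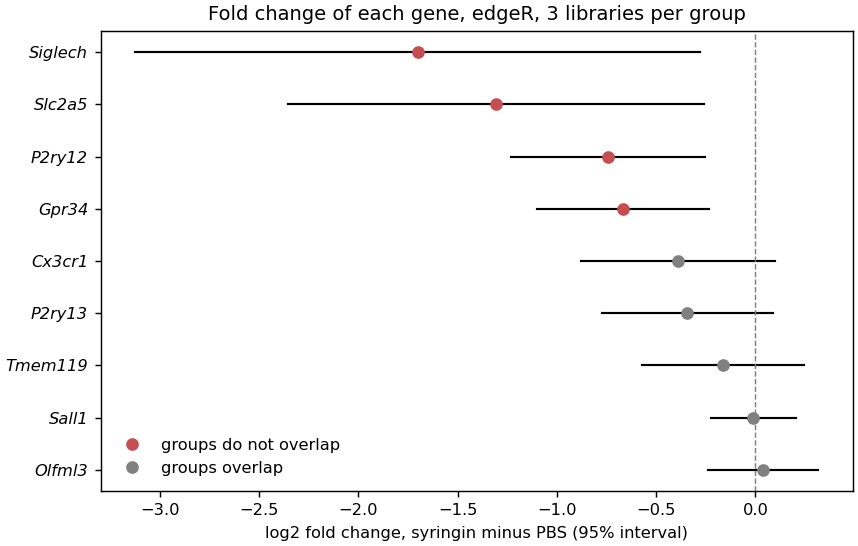
Log2 fold change (syringin minus PBS) of each gene from edgeR with its 95% interval, n = 3 libraries per group; red points are genes whose groups do not overlap. Siglech has the widest interval (-3.12 to -0.28) and Sall1 the narrowest (-0.23 to 0.20).

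Per transcript length, the order of the mean levels was not the same in the groups. In the PBS libraries Olfml3 was highest (25.1 ± 2.17 FPKM, mean ± SD, n = 3), with Cx3cr1 (23.2 ± 4.21) and Tmem119 (21.4 ± 2.63) overlapping it. P2ry12 (14.04 ± 3.04) and Gpr34 (13.5 ± 3.18) followed without separating from each other. Sall1 (10.4 ± 0.58), P2ry13 (8.29 ± 0.85), Siglech (3.14 ± 0.57) and Slc2a5 (0.81 ± 0.11 FPKM) came after them, each apart from its neighbour. In the syringin libraries Sall1 (10.2 ± 1.0 FPKM) stood above Gpr34 (8.37 ± 1.25) and P2ry12 (8.23 ± 1.97) by its mean, but the values of Sall1 and Gpr34 overlapped, as did those of Gpr34 and P2ry12. The ratio of P2ry12 to Sall1 FPKM was 1.18, 1.25 and 1.6 in PBS libraries and 0.583, 0.864 and 1.01 in syringin libraries, so P2ry12 was the higher of the pair in every PBS library.

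Across the 6 libraries the pairs among 7 genes, all but Sall1 and Olfml3, had high correlations, which include the difference between the groups. Pearson's r of log2 CPM was 0.78 to 0.99 over their 21 pairs (median 0.89), with P2ry12 and Gpr34 at 0.99. The 15 pairs with Sall1 or Olfml3 ranged from -0.58 to 0.56 (median 0.17). With the group means removed, Olfml3 was closer to the 7 genes: its r was 0.78 with Slc2a5, 0.68 with Cx3cr1, 0.66 with both Tmem119 and P2ry13 and 0.31 with Gpr34, while pairs among the 7 genes ranged from 0.61 to 0.98. Sall1 then had r from -0.58 (with Olfml3) to 0.39 (with Gpr34). The pairs share the same 6 libraries and their depth, and the 2 genes were set apart after the values were seen, so these are descriptions. The mean of the standardised log2 CPM of all 9 genes was 0.20, 0.25 and 1.0 in PBS libraries 1 to 3 and -1.29, -0.50 and 0.33 in syringin libraries 1 to 3. Syringin library 3 thus lay above PBS libraries 1 and 2, and syringin library 1 was the lowest. Syringin library 3 also had the highest share of mitochondrial counts (7.0%, against 4.63% to 6.30% in the others) and of haemoglobin counts (0.310%, against 0.0124% to 0.121%); their part in its values was not tested.

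**Figure D3:**
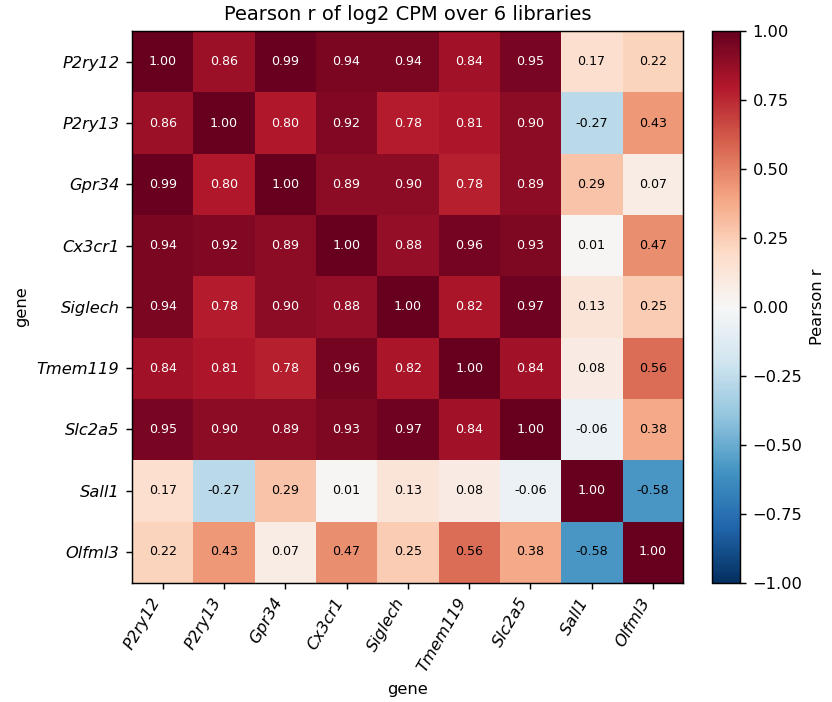
Pearson's r of log2 CPM over the 6 libraries for every pair of the 9 genes (colour scale from -1 to 1, value in each cell). A block of 7 genes has r from 0.78 to 0.99, and the rows of Sall1 and Olfml3 range from -0.58 to 0.56.

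The differences were also taken within the libraries with and without ganglion transcripts; for the 4 genes whose groups did not overlap the sign is fixed by that, and only the size is given. Within PBS library 1 and syringin libraries 1 and 3 the difference in mean log2 CPM was -1.96 for Siglech, -1.46 for Slc2a5, -0.57 for P2ry12 and -0.48 for Gpr34. Within PBS libraries 2 and 3 and syringin library 2 it was -2.49, -1.39, -0.85 and -0.77. Of the other 5 genes, Cx3cr1 had -0.30 and -0.40 in these subsets, P2ry13 -0.47 and -0.12, Tmem119 -0.08 and -0.25, and Olfml3 0.10 and 0.06. Sall1 changed sign between them, from 0.06 to -0.14. This split was chosen after the data were seen, and neither subset allows a test. With the mean of the ganglion markers as a covariate 0 of the 9 genes passed in edgeR, where 11.7% of all genes did (4 of the 9 had an unadjusted p under 0.05), and P2ry12 stood at -0.71 (adjusted p = 0.0695).

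Of the genes whose log2 CPM over the 6 libraries was most like the mean of the 9, Btbd17 (r = 0.996), Rasal1 (0.990), Sema4g (0.987), Agmo (0.986), Smyd1 (0.986), Mlxipl (0.985), Pcsk2os1 (0.983) and Slc7a10 (0.981) came first. They were picked as the highest of 14468 genes, of which 205 had r of 0.9 or more. None of these 8 passed edgeR's threshold. Slc7a10, an amino acid transporter of astrocytes, went from a mean of 68.4 to 37.7 CPM (log2 fold change -0.86 ± 0.38, edgeR adjusted p = 0.223).

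Relative to 12 pan-myeloid genes, the summed level of the homeostatic genes was lower in every syringin library than in any PBS library. The C1q genes made a large part of the pan-myeloid sum: C1qb, C1qa and C1qc had 281, 235 and 144 FPKM in PBS library 1. The FPKM of the 9 genes summed to 110, 113 and 137 in PBS libraries and 79.96, 95.03 and 112 in syringin libraries. Those of 12 pan-myeloid genes summed to 1081, 1107 and 1112 in PBS libraries and 1066, 2026 and 1535 in syringin libraries. The first sum was 10.2%, 10.2% and 12.3% of the second in PBS libraries and 7.50%, 4.69% and 7.33% in syringin libraries, without overlap. In syringin library 1 the pan-myeloid sum was just under the PBS range while the homeostatic sum was the lowest of all, and in syringin library 2 the pan-myeloid sum was the highest. Of the 12 pan-myeloid genes 0 passed edgeR's test and 0 passed limma-voom's, and 4 had an unadjusted p under 0.05 in edgeR. DESeq2 called 4 of the 12 higher, beside 1401 of all 22114 genes, and 11 fold changes were positive (median 0.45).

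**Figure D4:**
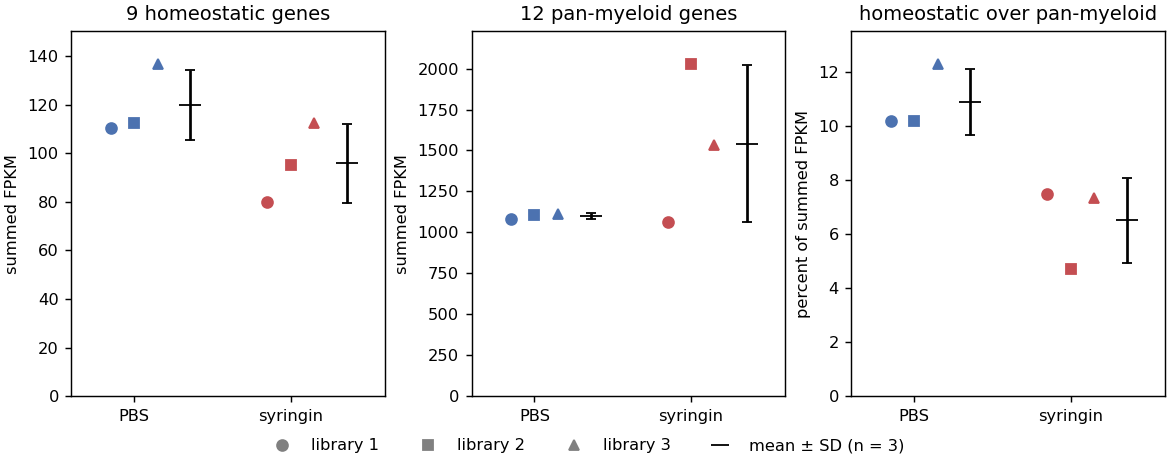
Summed FPKM of the 9 homeostatic genes (left) and of 12 pan-myeloid genes (middle), and the first as a percent of the second (right), in each library, with the mean ± SD per group; all axes start at 0. The percent is 10.2 to 12.3 in PBS libraries and 4.69 to 7.50 in syringin libraries.

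Single genes of the pan-myeloid list gave different pictures. Csf1r, the receptor on which microglia depend for survival and which other macrophages also express, had 51.2, 51.6 and 57.7 FPKM in PBS libraries and 33.7, 48.1 and 46.5 FPKM in syringin libraries (-0.29 ± 0.15, edgeR adjusted p = 0.299). Relative to Csf1r, P2ry12, Gpr34, Siglech and Slc2a5 were lower in all syringin libraries than in any PBS library. P2ry13, Tmem119, Sall1 and Cx3cr1 overlapped on that scale, and Olfml3 was higher, at 0.454, 0.533 and 0.426 in PBS libraries and 0.658, 0.545 and 0.593 in syringin libraries. Csf1r itself was lower in every syringin library than in any PBS library, which raises every ratio to it. The log2 fold change of Olfml3 alone was 0.04. Aif1, the general marker IBA1, had 6.59, 8.40 and 9.26 FPKM in PBS libraries and 5.72, 8.74 and 10.8 FPKM in syringin libraries (0.09 ± 0.25, edgeR adjusted p = 0.872). Relative to Aif1 the picture was different for 3 genes: P2ry13 (1.23, 0.899 and 0.996 in PBS libraries, 0.843, 0.851 and 0.642 in syringin libraries) and Cx3cr1 were lower without overlap, and Olfml3 overlapped. P2ry12, Gpr34, Siglech and Slc2a5 were lower without overlap on this scale too, and Tmem119 and Sall1 overlapped. The lysosomal gene Cd68 had a value of 1.03 ± 0.27 (edgeR adjusted p = 0.0666) and the myeloid factor Spi1, which encodes PU.1, one of 0.62 ± 0.15 (adjusted p = 0.0593). The signalling adaptors Tyrobp (0.75 ± 0.24) and Fcer1g (0.75 ± 0.25) were each at an edgeR adjusted p of 0.118. Two-sided exact permutation tests of such ratios could not go below p = 0.1. The share of all genes without overlap on these scales was not taken, so the ratios are descriptions.

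Other genes enriched in microglia had fold changes on both sides of 0. Of 19 such genes tested, 1 fell, none rose and 18 did not pass, beside 3.39% of all genes that fell. The median log2 fold change was 0.06, and 6 had an unadjusted p under 0.05 in edgeR. DESeq2 called 2 higher and 2 lower, beside 1401 and 1790 of all 22114 genes. The fallen gene was Crybb1, a crystallin transcript enriched in microglia, at 2.21, 1.91 and 0.94 FPKM in PBS libraries and 0.29, 0.29 and 0.39 FPKM in syringin libraries. Its log2 fold change was -2.34 ± 0.40 (edgeR adjusted p = 0.0236). It rests on few counts: 177, 137 and 69 in PBS libraries and 25, 21 and 29 in syringin libraries. If 1 fragment adds 4 counts, the fragments were fewer still. The P-selectin ligand gene Selplg had -0.01 ± 0.16, with overlapping groups. Arhgap5 had -0.35 ± 0.09 (edgeR adjusted p = 0.0691). Fcrls, which had been listed with them, was not analysed here.

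Among 13 genes of purine signalling 1 fell and none rose by edgeR, beside 3.39% and 1.62% of all genes (6 had an unadjusted p under 0.05). DESeq2 called 4 higher and 1 lower, beside 1401 and 1790 of all 22114 genes. The one that fell was Adora1, the adenosine A1 receptor that neurons express strongly, with 22.5, 20.3 and 21.4 FPKM in PBS libraries and 16.2, 14.6 and 14.5 FPKM in syringin libraries (-0.48 ± 0.08, edgeR adjusted p = 0.0233). P2ry6, the UDP receptor tied to microglial phagocytosis, had 8.81, 9.40 and 9.42 FPKM in PBS libraries and 11.0, 16.7 and 15.3 FPKM in syringin libraries. It did not overlap, in the opposite direction to P2ry12, and missed the threshold at 0.67 ± 0.17 (edgeR adjusted p = 0.0610). The ATP-gated channel P2rx4 (0.54 ± 0.16), the microglial potassium channel Kcnk13 (0.47 ± 0.13) and the vesicular nucleotide transporter Slc17a9 (1.13 ± 0.27) also had positive, non-overlapping values that did not pass (edgeR adjusted p = 0.0911, 0.0864 and 0.0519).

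Signals known to support microglia changed in both directions: of 18 genes 4 rose, 2 fell and 12 did not pass, beside 1.62% and 3.39% of all genes. DESeq2 called 7 higher and 3 lower, beside 1401 and 1790 of all 22114 genes. Cx3cl1 fell, as given with its receptor, and so did Itgb8, an integrin that activates transforming growth factor beta (-0.47 ± 0.09, edgeR adjusted p = 0.0294). Among ligands, Csf1 rose by 0.39 ± 0.08 and Tgfb1 by 0.64 ± 0.14 (adjusted p = 0.0400 and 0.0424). Il34, the second ligand of Csf1r, which neurons make, had 8.48, 11.3 and 10.2 FPKM in PBS libraries and 7.68, 6.06 and 8.0 FPKM in syringin libraries (-0.44 ± 0.15, edgeR adjusted p = 0.139). The transcription factor gene Runx1 rose by 0.75 ± 0.13 (edgeR adjusted p = 0.0236), and Mef2c had -0.25 ± 0.15 (adjusted p = 0.383). None of the 6 genes that rose or fell passed edgeR without PBS library 3, where no gene did.

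Genes of activated microglia and macrophages that passed the test all rose. Of 20 disease-associated microglia genes 3 rose, none fell and 17 did not pass (median 0.63), beside 1.62% of all genes that rose. The 3 were Lgals3, Cd63 and Csf1, at 1.13 ± 0.18, 0.59 ± 0.10 and 0.39 ± 0.08 (edgeR adjusted p = 0.0207, 0.0254 and 0.0400). DESeq2 called 10 higher and 0 lower, beside 1401 and 1790 of all 22114 genes. The cholesterol hydroxylase gene Ch25h had 0.77 ± 0.18 (edgeR adjusted p = 0.0540). Of the 20 fold changes 18 were positive and 2 negative, the latter those of Igf1 (-0.41 ± 0.31) and Cst7 (-0.17 ± 0.35). The FPKM of the 20 genes summed to 4751 to 5784 in PBS libraries and 5470 to 14107 in syringin libraries, with overlap. Spp1, the osteopontin gene, had 1426, 1895 and 1613 FPKM in PBS libraries and 2059, 5580 and 3438 FPKM in syringin libraries and missed the threshold (1.2 ± 0.34, adjusted p = 0.0851). Among 15 genes of infiltrating monocytes and macrophages 5 rose and 10 did not pass, with 15 positive fold changes (median 0.62). Those 5 were the coagulation factor gene F10 (1.26 ± 0.15), the lectin gene Clec4d (1.12 ± 0.14), S100a4 (0.71 ± 0.12), the arginase gene Arg1 (0.87 ± 0.18) and the thrombospondin gene Thbs1 (1.22 ± 0.26), with edgeR adjusted p from 0.0114 to 0.0410. The FPKM of the 15 genes summed to 880 to 1129 in PBS libraries and 1288 to 3234 in syringin libraries. Of 10 genes of border-associated macrophages, which line vessels and meninges, the chemokine gene Pf4 rose (1.02 ± 0.15, edgeR adjusted p = 0.0181) and 9 did not pass, among them F13a1 (0.93 ± 0.26), Ms4a7 (1.06 ± 0.35) and Stab1 (0.67 ± 0.24). Of the 10 fold changes 8 were positive and 2 negative, the latter those of Lyve1 (-0.16 ± 0.42) and the scavenger receptor gene Cd163 (-0.18 ± 0.71). Those 10 summed to 114 to 128 FPKM in PBS libraries and 167 to 233 in syringin libraries. Some of these lists share genes, and their part in the homeostatic values was not tested.

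**Figure D5:**
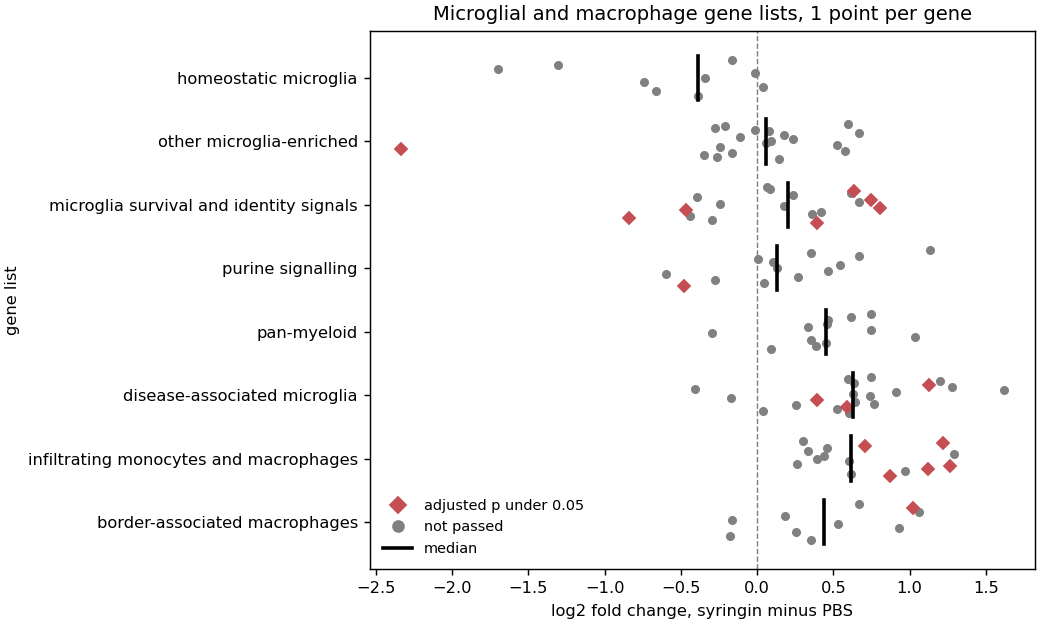
Log2 fold change (syringin minus PBS) of each tested gene in 8 microglial and macrophage lists, with the median as a bar and genes past edgeR's adjusted p of 0.05 as red diamonds. The homeostatic list has the lowest median (-0.39) and no diamond, and the disease-associated list has a median of 0.63.

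Markers of neurons and astrocytes also differed between the groups. Of 8 genes of cord neurons 5 fell and 3 did not pass (summed FPKM 244 to 280 in PBS libraries and 114 to 175 in syringin libraries), and of 7 astrocyte genes 2 fell and 5 did not pass (1300 to 1596 and 911 to 1230), beside 3.39% of all genes that fell. DESeq2 called 8 of the neuron and 3 of the astrocyte genes lower, beside 8.09% of all genes. No gene of the neutrophil (10), lymphocyte (9), oligodendrocyte (6) or sensory ganglion (11) list passed edgeR's test, with 2, 2, 0 and 0 at an unadjusted p under 0.05. In these lists DESeq2 called 2 neutrophil genes lower and 1 lymphocyte gene higher, beside 1790 and 1401 of all 22114 genes, and limma-voom called none. Lymphocyte genes, some of whose cells carry Cx3cr1, summed to 1.05 to 2.43 FPKM in PBS libraries and 2.34 to 4.27 in syringin libraries, with Cd3g, Cd79a and Ms4a1 at 0 in at least 1 library. The part of these cells in the homeostatic values was not tested.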

How the data were processed

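Per the labels' protocols, RNA of cord tissue was extracted with TRIzol and made into stranded polyadenylated RNA libraries with a TruSeq kit. Tools named in the submitters' processing notes are HISAT2 and StringTie (versions not given in the sources used here), with GRCm38 and mm10 as builds. For each gene the table deposited by the authors holds estimated counts and, beside them, FPKM values made by the authors. The deposited estimated counts were whole numbers, so rounding altered none. Gene coordinates are those of the table: 717 of the 34804 gene IDs also found in GENCODE M21 (GRCm38) had the same start there, and 0 of the 9 genes did, so their build is uncertain. Promoter windows are RefSeq's on GRCm38.p6.

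After filterByExpr at a minimum count of 10 and a minimum total of 15 (22114 of 37475 genes left) and TMM scaling, with factors from 0.965 to 1.03, edgeR 4.0.16 in R 4.3.3 fitted a robust quasi-likelihood model of treatment alone. A gene passed at a two-sided Benjamini-Hochberg adjusted p under 0.05 over all genes. Each standard error was derived from the F statistic (log2 fold change divided by its root), and CPM are counts per 1e+06 after scaling. DESeq2 1.42.0 and limma 3.58.1 were alternatives. Tables and figures used pandas 2.3.3, scipy 1.17.1 and matplotlib 3.10.9 in Python 3.11.15.

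The members, lists and alternatives were chosen with earlier results of these data known. The rule for named genes took the 9 members, from each other list the genes that passed and, up to 4, those with the smallest p, and the 8 genes most like the members; genes of the lists of other cell types are given mostly by counts, and a few further genes were named after their values were seen. Some genes that the rule takes are counted in their lists and not reported here by name. In simulated counts of 22104 genes for syringin against PBS, absolute log2 changes of 0.58, 1 and 1.5 were planted in 67, 65 and 63 genes. There edgeR called 1.49%, 27.7% and 81% of them, and 2 of its 72 calls were false. The data gave 1108 calls. The unadjusted p needed to pass depends on how many genes change, so these shares do not give the recovery in the data. The labels call the 3 samples of a group biological replicates and name no batch.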

Additional observations from a re-analysis of the deposited data

How the results depend on the processing

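P2ry12, P2ry13, Tmem119, Siglech, Gpr34, Cx3cr1 and Slc2a5 kept a negative log2 fold change in all 32 alternatives fitted to all genes. In those fits P2ry12 passed the threshold in 7, Gpr34 in 6, Siglech in 5 and Slc2a5 in 4, and the other 5 genes in none. Of the 9 genes, 0 passed in edgeR on all libraries, 3 in DESeq2 and 4 (P2ry12, Siglech, Gpr34 and Slc2a5) with the replicate number as a block. Over the whole table edgeR called 1108 genes, DESeq2 3191, limma on log2(FPKM + 0.1) 707, limma on log2(FPKM + 1) 715, edgeR with the ganglion covariate 2591 and edgeR with the replicate block 2557. Samples with the same number deviated together only in part (correlations 0.292, 0.123 and 0.0522), so the numbers are not shown to pair the samples. With 1 library left out in turn, edgeR called 0 to 1 of the 9 genes and 0 to 1944 of all genes, DESeq2 0 to 4 and 1466 to 4009, and limma-voom 0 to 1 and 0 to 1923. In the order PBS 1, PBS 2, syringin 2 and syringin 3 left out, DESeq2 called 2198, 2225, 2364 and 2600 of all genes and limma-voom 308, 264, 402 and 241; DESeq2 called 2, 2, 1 and 4 of the 9. Sall1 turned positive without PBS library 3 (0.031 in edgeR, 0.026 in DESeq2, 0.030 in limma-voom) and without syringin library 2 (0.050, 0.049 and 0.052), its lowest value by edgeR being -0.061 without syringin library 1. It was also at 0.060 within the libraries with ganglion transcripts and at -0.14 within those without, a split chosen after the data were seen. Olfml3 turned negative without PBS library 1 (-0.015 in edgeR, -0.017 in DESeq2, -0.022 in limma-voom), without syringin library 3 (-0.038, -0.034 and -0.044) and without syringin library 2 (-0.00065 in DESeq2, -0.0081 in limma-voom), its highest value by edgeR being 0.14. The cause of these changes was not tested. The scaling alternatives on all libraries moved the median of all genes by less than 0.1. Of the 9 genes, depth limits Siglech and Slc2a5 most, at 97 and 40 counts in their lowest library.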
